A study of Mus musculus with 4 samples.

Results

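The nuclear-encoded subunits of the mitochondrial respiratory chain were described here in the striatum of mice that carry expanded huntingtin alleles by knock-in, a model of Huntington's disease. Members were the named genes whose symbol starts with Ndufa, Ndufb, Ndufc, Ndufs or Ndufv (without the Ndufaf assembly factors), with Uqcr, Cox4i, Cox5, Cox6, Cox7, Cox8 or Atp5, or is Sdha, Sdhb, Sdhc or Sdhd. Pseudogene names were left out, and a member had a mean of at least 1 FPKM (a fragment count per unit of transcript length, adjusted for depth) over the 4 libraries. This gave 83 of the 12877 genes tested and of the 29144 features in the table: 38 for complex I, 4 for complex II, 8 for complex III, 16 for complex IV and 17 for complex V. Of the 85 rows that matched by name, Cox8c was at 0 fragments in all 4 libraries and Cox7b2 averaged 0.381 FPKM, so both lay below the level and were not followed further. The member with the lowest mean was Cox7a1, at 2.54 FPKM. A few names carry a prefix without being a structural subunit: Ndufa4 is now counted with complex IV, Ndufa4l2 is its paralogue, Cox7a2l joins complexes into supercomplexes, and Atp5s and Atp5sl are not structural parts of the ATP synthase.

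RNA came from dissected striatum of mice on the C57BL/6J background, 21 weeks after birth, selected for poly A and sequenced as paired ends. There was 1 library for each genotype: HDQ150/150 and HDQ200/200, each with a mutant huntingtin allele on both chromosomes, HDQ315/+, with 1 mutant and 1 wild-type allele, and HDQ+/+, the wild type. Neither the animals' sex nor how many animals stand behind a library is given in the sources used here. A single library per genotype allows no check between replicates, so no p-value is given: values describe these libraries, intervals cover counting error only, and genotype, animal and dissection cannot be told apart. The 3 comparisons with wild type share the HDQ+/+ library.

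The respiratory chain is a set of protein complexes in the inner mitochondrial membrane. Complex I takes electrons from NADH and complex II from succinate, complex III passes them to cytochrome c, complex IV hands them to oxygen, and complex V, the ATP synthase, uses the resulting proton gradient to make ATP. Most subunits are encoded in the nucleus and imported, and a few core subunits are encoded by the mitochondrial genome. Striatal projection neurons, the cells most affected in Huntington's disease, have a high demand for ATP, and impaired complex II and complex III activity has been described in the human disease.

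The libraries held 25058800 fragments in HDQ150/150, 33468900 in HDQ200/200, 26324800 in HDQ315/+ and 36877700 in HDQ+/+, to 6 digits. Htt, the targeted gene, had 4.42 FPKM in HDQ150/150, 7.68 in HDQ200/200 and 4.78 in HDQ315/+, against 7.56 in HDQ+/+. The level of Htt does not show the repeat length, so it does not check the genotype labels. Its log2 ratio was -0.66 in HDQ150/150, 0.02 in HDQ200/200 and -0.57 in HDQ315/+. After correction for transcript length the values were -0.53, -0.59 and -0.31 in the same order. Before correction only the HDQ150/150 value was past the call threshold used below, and after it only the HDQ200/200 value was. All 8 markers of striatal projection neurons were below wild type in HDQ150/150 and HDQ200/200, and 7 of them were in HDQ315/+. Fewer passed that call threshold: 7 for HDQ150/150 and 3 for HDQ315/+, while for HDQ200/200 all 8 did. Over all genes tested, 3.32% were called lower for HDQ150/150, 8.78% for HDQ200/200 and 2.12% for HDQ315/+. All 5 cortical neuron markers were higher in HDQ150/150 and in HDQ200/200, with a summed level of 271.2 FPKM in HDQ150/150, 154.8 in HDQ200/200 and 106.5 in HDQ315/+, against 80.5 in HDQ+/+. All 4 thalamic neuron markers were higher in HDQ315/+, at a summed 77.2 FPKM against 8.72 in HDQ+/+, and all 3 liver genes looked at were higher there too, at a summed 142.0 against 1.17. All 5 choroid plexus markers were lower in every mutant library. In bulk tissue, a change in the proportion of cells and a change in RNA per cell cannot be told apart, and the part of these differences in the results below was not tested.

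Most subunit genes were strongly expressed, and 73 of the 83 averaged at least 50 FPKM. The member with the highest mean level was Cox4i1, the ubiquitous form of a complex IV subunit, with 836 FPKM in HDQ150/150, 494 in HDQ200/200 and 1033 in HDQ315/+, against 735 in HDQ+/+. Within the other complexes the highest were Ndufa4 for complex I, Sdha for complex II, Uqcrq for complex III and Atp5b, the catalytic beta subunit, for complex V. Atp5b had 609 FPKM in HDQ150/150, 442 in HDQ200/200 and 681 in HDQ315/+, against 543 in HDQ+/+. The summed level of the 83 members was 17694.5 FPKM in HDQ150/150, 10219.3 in HDQ200/200 and 20235.8 in HDQ315/+, against 15504.1 in HDQ+/+. The HDQ200/200 library was thus the low one and the HDQ315/+ library the high one.

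**Figure D1:**
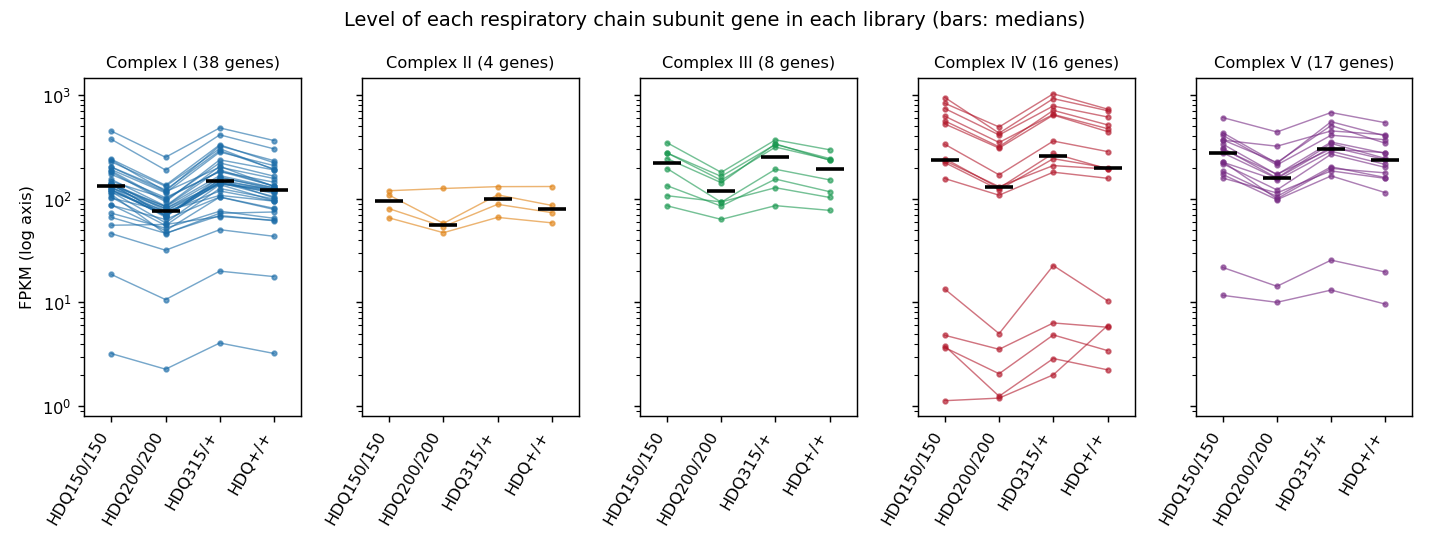
Level of each of the 83 subunit genes in FPKM (vertical axis, logarithmic) in the HDQ150/150, HDQ200/200, HDQ315/+ and HDQ+/+ libraries, in 1 panel per complex; each line is 1 gene and black bars are medians. The median of all 83 members was 156.9 FPKM in HDQ150/150, 96.9 in HDQ200/200 and 184.5 in HDQ315/+, against 132.9 in HDQ+/+.

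The complexes largely kept their proportions while the sum moved. Complex I genes made up between 31.1% and 32.5% of the summed member FPKM in the 4 libraries, complex III genes between 9.44% and 9.53%, complex IV genes between 29.2% and 30.9% and complex V genes between 26.1% and 27.4%. The smallest share, that of complex II, was 2.11% in HDQ150/150, 2.79% in HDQ200/200 and 1.95% in HDQ315/+, against 2.26% in HDQ+/+. The rank order of the 83 levels was also much the same in every pair of libraries, with Spearman correlations across genes between 0.968 and 0.990, where genes are not independent replicates.

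Ratios below are differences of log2(FPKM + 1) from HDQ+/+, a scale that understates changes of genes with low values, and a gene is called higher or lower from 1.5-fold, which is 0.585 on the log2 scale. In HDQ200/200, 82 of the 83 members were below wild type and 44 were called lower, with none called higher. Over all genes tested, 8.78% were called lower and 5.37% higher in that comparison. The median log2 ratio of the members was -0.60, against -0.05 over all genes tested. For 80 members the 95% interval of the ratio of fragments lay wholly below 1. Ndufa4l2, Cox7a1 and Atp5s were the other 3. These intervals cover counting error only and were made for the members alone, so no share over all genes stands beside this count. With the trend over transcript length removed, as set out below, the median was -0.07 and 2 members were called lower. On that scale 3.53% of all genes tested were called lower and 3.39% higher.

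In HDQ315/+, 80 members were above wild type and the median log2 ratio was 0.35, against 0.04 over all genes. Only 4 members were called higher, Ndufa12, Ndufb4, Ndufs5 and Cox6a2, and 1 lower, Cox8b. The share of all genes tested that was called was 2.9% higher and 2.12% lower, and the members called higher were 4.82% of the 83. With the trend over length removed the median was 0.04, and Cox6a2 was the 1 member called higher. On that scale 1.68% of all genes tested were called higher and 2.32% lower. In HDQ150/150, 73 members were above wild type and the median was 0.16, against -0.01 over all genes, and 0.06 with that trend removed. None was called higher, where 2.92% of all genes were, and Cox8b alone was called lower, where 3.32% of all genes were.

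The same members thus had their lowest level in HDQ200/200 in 79 of 83 cases, where 43.9% of all genes tested were lowest. The exceptions were Ndufs1, Sdha and Cox8b, lowest in HDQ150/150, and Atp5s, lowest in HDQ+/+. The highest level was in HDQ315/+ for 73 members, against 36.9% of all genes, in HDQ150/150 for 8, and in HDQ+/+ for 2, Sdha and Cox8b. The full order HDQ200/200, HDQ+/+, HDQ150/150, HDQ315/+ from low to high was followed by 64 members, and by 17.8% of all genes. This order follows neither the repeat length in the genotype names nor the number of mutant alleles. Between mutant libraries, the member median was -0.80 for HDQ200/200 against HDQ150/150 (all genes -0.06), 0.95 for HDQ315/+ against HDQ200/200 (all genes 0.11) and 0.19 for HDQ315/+ against HDQ150/150 (all genes 0.05). Other strongly expressed genes, the 1394 with a mean of at least 50 FPKM, leaned the same way to a smaller degree, with medians of 0.05 in HDQ150/150, -0.31 in HDQ200/200 and 0.16 in HDQ315/+.

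**Figure D2:**
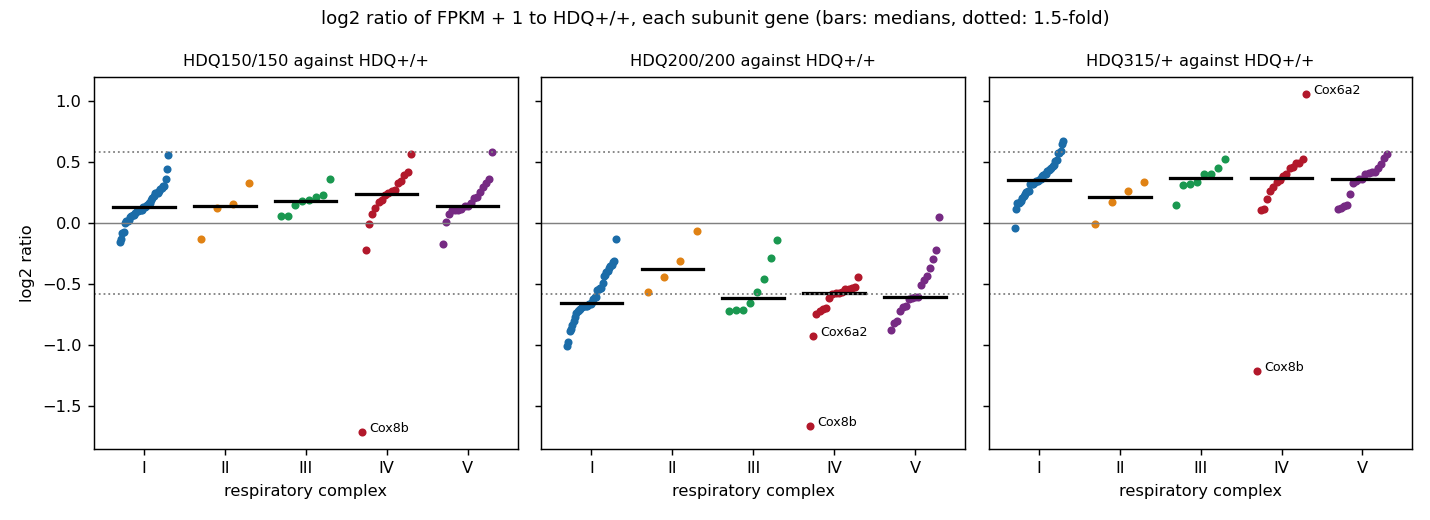
log2 ratio of FPKM + 1 to HDQ+/+ (vertical axis) of each subunit gene, by complex (horizontal axis), for HDQ150/150, HDQ200/200 and HDQ315/+; bars are medians and dotted lines mark 1.5-fold. Points lie mostly above 0 in HDQ150/150 and HDQ315/+ and below 0 in HDQ200/200, with member medians of 0.16, -0.60 and 0.35 in that panel order, and Cox8b stands far below the rest in all 3 panels.

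The start sites of the members were searched for motifs of factors known to act on respiratory genes. Whether a motif goes with the ratios was not tested, and the length correction set out below removed most of the members' shared shift. RefSeq promoters on GRCm38.p6, from 250 bases before to 50 after the start, matched 69 of the 83 members by name, with 75 promoters in all. Motifs were looked for on both strands, and matches may overlap. The core GCATGCG of NRF1, an activator of many respiratory genes, was in 14.7% of member promoters, against 6.03% of promoters of genes tested and 3.58% of all promoters in the table. The core CCGGAAG of the ETS family, to which the GABP factor belongs, was in 21.3% of member promoters, against 16.1% and 8.86%. The core AAGATGG of YY1 was in 17.3%, against 6.94% and 6.34%. At least 1 of these 3 was in 44.0% of member promoters, against 26.2% and 17.3%. The GC box GGGCGG was in 38.7% of member promoters, against 61.9% of those of genes tested and 35.7% of all, and TATAAA in 9.33%, against 7.14% and 13.6%. A match is a run of letters, and binding was not measured.

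The promoters of 5 members are printed, all 5′ to 3′ on the strand of the gene, with any of the motifs above in capitals. They are those of Ndufa4 and Atp5b, the members with the highest mean level of complexes I and V, and of the complex IV genes Cox6a1, Cox8a and Cox8b.
Ndufa4 (chr6:11907401-11907700, minus strand): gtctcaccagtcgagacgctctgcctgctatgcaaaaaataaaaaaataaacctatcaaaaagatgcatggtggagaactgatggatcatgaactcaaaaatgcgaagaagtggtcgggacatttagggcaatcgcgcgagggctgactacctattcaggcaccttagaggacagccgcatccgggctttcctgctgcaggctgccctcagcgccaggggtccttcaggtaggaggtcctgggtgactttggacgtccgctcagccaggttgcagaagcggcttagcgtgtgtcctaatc
Atp5b (chr10:128083057-128083356, plus strand): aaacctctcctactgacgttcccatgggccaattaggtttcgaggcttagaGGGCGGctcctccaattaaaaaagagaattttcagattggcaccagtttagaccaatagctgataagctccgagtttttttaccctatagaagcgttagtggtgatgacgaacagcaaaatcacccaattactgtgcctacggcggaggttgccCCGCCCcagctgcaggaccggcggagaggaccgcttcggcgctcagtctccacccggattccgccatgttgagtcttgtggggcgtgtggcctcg
Cox6a1 (chr5:115348909-115349208, minus strand): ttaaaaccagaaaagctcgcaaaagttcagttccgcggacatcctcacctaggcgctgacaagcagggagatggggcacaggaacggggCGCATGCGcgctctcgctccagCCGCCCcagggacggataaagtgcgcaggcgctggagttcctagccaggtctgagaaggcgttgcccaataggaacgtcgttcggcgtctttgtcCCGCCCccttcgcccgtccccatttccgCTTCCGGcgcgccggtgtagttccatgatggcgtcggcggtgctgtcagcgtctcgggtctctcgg
Cox8a (chr19:7217567-7217866, minus strand): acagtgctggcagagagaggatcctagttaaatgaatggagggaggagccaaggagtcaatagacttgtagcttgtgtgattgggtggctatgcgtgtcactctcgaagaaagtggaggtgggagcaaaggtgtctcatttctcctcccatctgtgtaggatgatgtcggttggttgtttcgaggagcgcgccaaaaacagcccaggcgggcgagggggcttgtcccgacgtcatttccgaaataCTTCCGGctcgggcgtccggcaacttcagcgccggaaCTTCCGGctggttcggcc
Cox8b (chr7:140900397-140900696, minus strand): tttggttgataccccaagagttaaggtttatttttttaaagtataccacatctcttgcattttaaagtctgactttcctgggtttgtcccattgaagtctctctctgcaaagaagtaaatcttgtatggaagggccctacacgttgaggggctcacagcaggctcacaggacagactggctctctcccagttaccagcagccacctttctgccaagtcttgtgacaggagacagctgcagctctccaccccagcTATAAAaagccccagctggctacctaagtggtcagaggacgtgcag
The Cox6a1 promoter holds the NRF1 core on both strands at 1 place, 1 ETS core and 2 GC boxes. Cox8a and Cox8b encode alternative forms of 1 subunit. The Cox8a promoter holds 2 ETS cores, and the Cox8b promoter holds none of the NRF1, ETS, YY1 or GC motifs and 1 TATAAA. The Atp5b promoter holds 2 GC boxes, and that of Ndufa4 holds no match. Whether the matches in these 5 promoters go with the levels of the genes was not tested.

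Complex I is the entry point for electrons from NADH and has 7 nuclear-encoded core subunits among the members, which carry the flavin and iron-sulphur clusters, and a larger shell of accessory subunits. In HDQ200/200, 23 of its 38 genes were called lower, and the medians were 0.13 in HDQ150/150, -0.65 in HDQ200/200 and 0.35 in HDQ315/+. The lowest was Ndufa1, a small accessory subunit of the membrane arm needed for assembly, with 180.7 FPKM in HDQ150/150, 93.9 in HDQ200/200 and 238.2 in HDQ315/+, against 190.2 in HDQ+/+. Its log2 ratio was -0.07 in HDQ150/150, -1.01 in HDQ200/200 and 0.32 in HDQ315/+, and in HDQ200/200 the ratio of normalised fragments was 0.532 (95% interval 0.495 to 0.571). Ndufa5, an accessory subunit of the peripheral arm, followed at -0.97 in HDQ200/200, with 118.4 FPKM there against 233.6 in HDQ+/+. The accessory subunits Ndufb7 (-0.88), Ndufb10 (-0.87), Ndufa13 (-0.84) and Ndufa6 (-0.77) came next by log2 ratio. The accessory subunits as a group had a median of -0.66 in HDQ200/200, and 20 of 29 were called lower.

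The 7 core subunits lay closer to wild type before correction for length, with a median of -0.40 in HDQ200/200 and 3 called lower. After the length correction set out below, the core median there was -0.18 and the accessory median -0.07, so this contrast did not hold. Those 3 were Ndufs7, which carries the last iron-sulphur cluster before the quinone site, at -0.81, Ndufs3 at -0.68 and Ndufs8 at -0.67. Ndufv2 (-0.40), Ndufv1, which binds NADH and flavin (-0.39), and Ndufs1 (-0.13) were not called. Ndufs1, the largest subunit of the complex, had 55.6 FPKM in HDQ150/150, 56.6 in HDQ200/200 and 67.5 in HDQ315/+, against 62.2 in HDQ+/+. Its 4 levels lie near each other, and it also has one of the longest transcripts among the members, a point taken up below. Ndufs7 shares its listed locus with Atp5d, so fragments of these neighbours may not be fully separated.

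In HDQ315/+ the 3 complex I genes called higher were all accessory subunits. Ndufb4 had 227.3 FPKM in HDQ150/150, 132.1 in HDQ200/200 and 305.2 in HDQ315/+, against 191.6 in HDQ+/+, a log2 ratio of 0.67 in HDQ315/+. Ndufs5 followed at 0.64 and Ndufa12 at 0.59. Ndufc1 behaved differently from the rest: it had 110.4 FPKM in HDQ150/150, 46.2 in HDQ200/200 and 72.6 in HDQ315/+, against 74.7 in HDQ+/+. It was thus the complex I gene highest above wild type in HDQ150/150, at 0.56, and the lowest of the complex in HDQ315/+, at -0.04. It rests on 559, 330 and 402 fragments in HDQ150/150, HDQ200/200 and HDQ315/+, against 603 in HDQ+/+.

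Complex II, succinate dehydrogenase, belongs to both the respiratory chain and the citric acid cycle, and it is the target of toxins that produce striatal lesions in animals. None of its 4 genes was called in any comparison. Sdha, the flavoprotein that oxidises succinate, had 119.8 FPKM in HDQ150/150, 125.9 in HDQ200/200 and 131.2 in HDQ315/+, against 131.5 in HDQ+/+. Its log2 ratios were -0.13, -0.06 and 0.00 in that order of mutants. Sdhb, the iron-sulphur subunit that works with Sdha, had 108.5 FPKM in HDQ150/150, 58.0 in HDQ200/200 and 109.2 in HDQ315/+, against 86.4 in HDQ+/+, and its -0.57 in HDQ200/200 lies just short of the call threshold. The membrane anchors Sdhc and Sdhd stood between them in HDQ200/200, at -0.44 and -0.31. Sdha thus held its level in the HDQ200/200 library, where the share of complex II in the member sum was highest.

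Complex III, which passes electrons from ubiquinol to cytochrome c, had 4 of 8 genes called lower in HDQ200/200 and none called in the other mutants. The 4 were small accessory subunits, Uqcrq (-0.72), Uqcrb (-0.72), Uqcr10 (-0.71) and Uqcr11 (-0.66). Uqcrq had 348.3 FPKM in HDQ150/150, 180.1 in HDQ200/200 and 371.1 in HDQ315/+, against 297.6 in HDQ+/+. The larger subunits differed less in HDQ200/200: the Rieske iron-sulphur protein Uqcrfs1 was at -0.28, and the core proteins Uqcrc1 and Uqcrc2 were at -0.46 and -0.14. Uqcrb was the highest of the complex in HDQ315/+, at 0.52.

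Complex IV, cytochrome c oxidase, had 7 of 16 genes called lower in HDQ200/200: Cox5b, Cox6a2, Cox7a2, Cox7b, Cox7c, Cox8a and Cox8b. Medians were 0.24 in HDQ150/150, -0.58 in HDQ200/200 and 0.37 in HDQ315/+. Cox8a, the ubiquitous form of the smallest subunit, had 950.5 FPKM in HDQ150/150, 430.3 in HDQ200/200 and 927.4 in HDQ315/+, against 709.5 in HDQ+/+. Its log2 ratio was 0.42 in HDQ150/150, -0.72 in HDQ200/200 and 0.39 in HDQ315/+. Cox6a1 was the least reduced of the complex in HDQ200/200, at -0.44. Ndufa4, named for complex I but counted with complex IV today, had 450.8 FPKM in HDQ150/150, 252.1 in HDQ200/200 and 484.1 in HDQ315/+, against 365.4 in HDQ+/+, which is the common pattern.

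Several complex IV subunits have a second gene that is used in muscle or in particular cells, and these paralogues were rare in the striatum. Cox4i2, Cox6a2, Cox7a1 and Cox8b each made up at most 3.36% of the FPKM of their pair, with Cox4i1, Cox6a1, Cox7a2 or Cox8a as the other gene. Of all members, Cox8b had the lowest log2 ratio in each comparison with HDQ+/+. Cox6a2 followed the common order but had the highest log2 ratio of all members in HDQ315/+. Cox8b, known as the form of heart, muscle and brown fat, had 1.13 FPKM in HDQ150/150, 1.19 in HDQ200/200 and 2.00 in HDQ315/+, against 5.97 in HDQ+/+. These values rest on 6, 9 and 12 fragments in the 3 mutants in the same order, against 49 in HDQ+/+. The ratios of normalised fragments were 0.199 (95% interval 0.0697 to 0.466) in HDQ150/150, 0.21 (0.0909 to 0.433) in HDQ200/200 and 0.354 (0.172 to 0.676) in HDQ315/+. The HDQ+/+ library alone was high, and it also stood alone in the choroid plexus markers Ttr, Folr1, Kl, Kcnj13 and Clic6. Their summed level was 67.7 FPKM in HDQ150/150, 54.0 in HDQ200/200 and 312.8 in HDQ315/+, against 1555.2 in HDQ+/+. The part of that difference in the Cox8b values was not tested. The muscle markers Ckm, Myh6, Myl2, Actn2 and Acta1 summed to 24.2 FPKM in HDQ150/150, 23.6 in HDQ200/200 and 36.4 in HDQ315/+, against 41.5 in HDQ+/+, and their part was not tested either. Most of that sum was Actn2, which was called lower in HDQ150/150 (-0.87) and in HDQ200/200 (-0.80), and Acta1 was called lower in HDQ200/200 (-0.62). Ckm, the muscle creatine kinase gene, was near 0, at 2, 3 and 0 fragments in HDQ150/150, HDQ200/200 and HDQ315/+, against 1 in HDQ+/+. Myh6 and Myl2 also averaged below 1 FPKM, so the sum does not measure muscle content.

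Cox6a2, the heart and muscle form of its subunit, which in mouse brain is also found in parvalbumin interneurons, had 13.4 FPKM in HDQ150/150, 5.001 in HDQ200/200 and 22.7 in HDQ315/+, against 10.4 in HDQ+/+. The ratio of normalised fragments was 2.34 (95% interval 1.98 to 2.78) in HDQ315/+ and 0.509 (0.398 to 0.647) in HDQ200/200. The HDQ200/200 and HDQ315/+ levels therefore lie on either side of wild type, as for most members, but farther out, and after the length correction the HDQ200/200 value was -0.40 and no longer called. Pvalb, the marker of parvalbumin interneurons, was at 50.2 FPKM in HDQ150/150, 28.3 in HDQ200/200 and 48.2 in HDQ315/+, against 31.0 in HDQ+/+, and its part in the Cox6a2 values was not tested. The listed locus of Cox6a2, chr7:128173946-128206366 on mm10, is far longer than the gene in GENCODE M21. Cox7a1 and Cox4i2 had at most 4.86 FPKM in any library and were called in none of the comparisons, and neither were Cox6b2 and Ndufa4l2. For Cox7a1 the log2 ratio in HDQ150/150 was 0.57, just under the threshold, on few fragments.

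**Figure D3:**
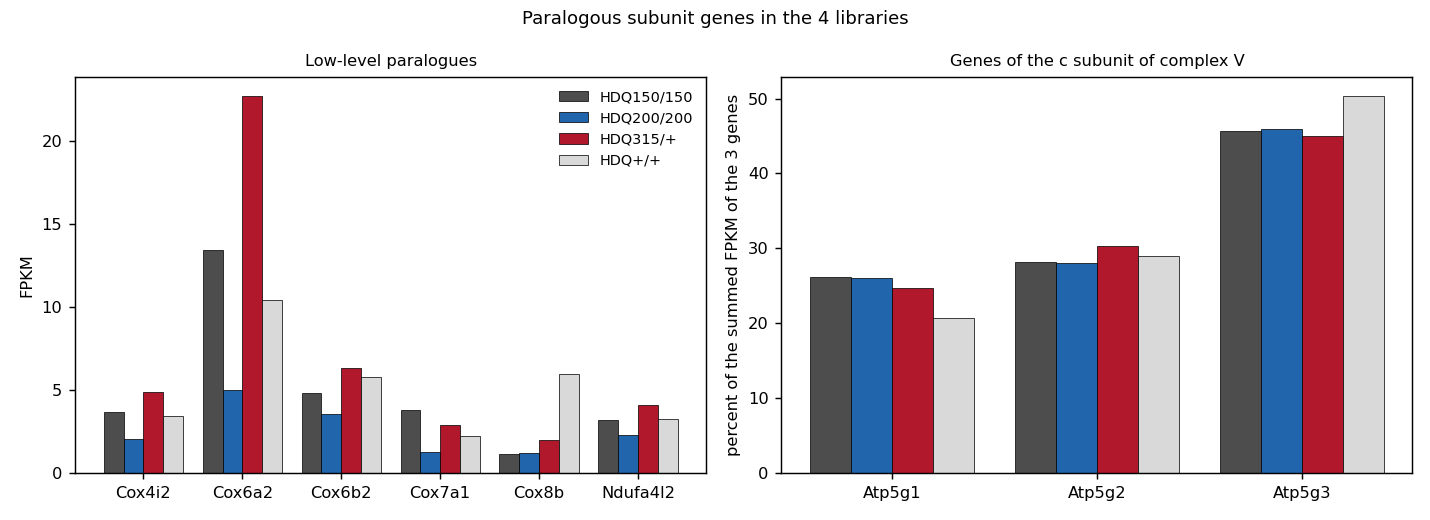
Left, FPKM (bars, from 0) of 6 rare paralogous subunit genes in HDQ150/150, HDQ200/200, HDQ315/+ and HDQ+/+; right, the percentage of the summed FPKM of Atp5g1, Atp5g2 and Atp5g3 that each gene holds. Cox8b is highest in HDQ+/+ at 5.97 FPKM, Cox6a2 is highest in HDQ315/+ at 22.7 FPKM, and Atp5g1 holds 26.1%, 26.1% and 24.7% in the 3 mutants against 20.7% in HDQ+/+.

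Complex V had 10 of 17 genes called lower in HDQ200/200 and none called in the other mutants, with medians of 0.14 in HDQ150/150, -0.60 in HDQ200/200 and 0.37 in HDQ315/+. The small subunits of the membrane part that hold synthase dimers together were among the lowest in HDQ200/200: Atp5k (subunit e) was at -0.88 and Atp5l (subunit g) at -0.81. Atp5k had 435.0 FPKM in HDQ150/150, 219.7 in HDQ200/200 and 555.2 in HDQ315/+, against 404.9 in HDQ+/+. In the catalytic head and central stalk the small epsilon and delta subunits, Atp5e (-0.82) and Atp5d (-0.72), were called lower, and the alpha, beta and gamma subunits, Atp5a1 (-0.37), Atp5b (-0.30) and Atp5c1 (-0.51), were not. Of the 4 peripheral stalk genes, 3 were called lower: Atp5h, Atp5j and Atp5o. Atp5s, which is no structural subunit, was the 1 member above wild type in HDQ200/200, at 0.05, with 11.7 FPKM in HDQ150/150, 10.03 in HDQ200/200 and 13.2 in HDQ315/+, against 9.64 in HDQ+/+.

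The c subunit, whose ring turns as protons pass, is made from 3 genes that encode the same mature protein with different import signals. Atp5g1 had 171.9 FPKM in HDQ150/150, 98.1 in HDQ200/200 and 166.5 in HDQ315/+, against 114.8 in HDQ+/+. It was the complex V gene highest above wild type in HDQ150/150, at 0.58, and was the least reduced structural subunit of the complex in HDQ200/200, at -0.22. Atp5g3, the most abundant of the 3, was at 0.11 in HDQ150/150, -0.69 in HDQ200/200 and 0.12 in HDQ315/+. The share of the 3 genes' FPKM held by Atp5g1 was 26.1% in HDQ150/150, 26.1% in HDQ200/200 and 24.7% in HDQ315/+, against 20.7% in HDQ+/+. That of Atp5g3 was 45.7%, 45.9% and 45.0% in the same mutants, against 50.4% in HDQ+/+. The 3 genes, like many members, have close copies elsewhere in the genome, and how the counting shared fragments between copies is not given in the sources used here.

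Subunit transcripts are short, and length moved with the ratios. The effective transcript length implied by the deposited values had a median of 531 bases for the members, against 2887 for all genes tested, and 74 of the 83 members lay in the shortest of 5 equal classes of all genes by length, up to 1575 bases. In that class the genes that are no members had median log2 ratios of 0.08 in HDQ150/150, -0.39 in HDQ200/200 and 0.25 in HDQ315/+, and 26.9% of them were called lower in HDQ200/200. The 74 members in it had medians of 0.17, -0.62 and 0.36 for the same libraries, with 43 called lower in HDQ200/200. In the longest class, which held no member, the medians ran the other way, at -0.08 in HDQ150/150, 0.28 in HDQ200/200 and -0.14 in HDQ315/+. Across all genes tested, the Spearman correlation of log2 ratio with length was -0.20 in HDQ150/150, 0.59 in HDQ200/200 and -0.47 in HDQ315/+. Across the 83 members it was -0.36, 0.59 and -0.18. These are descriptions across genes that share the same libraries.

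**Figure D4:**
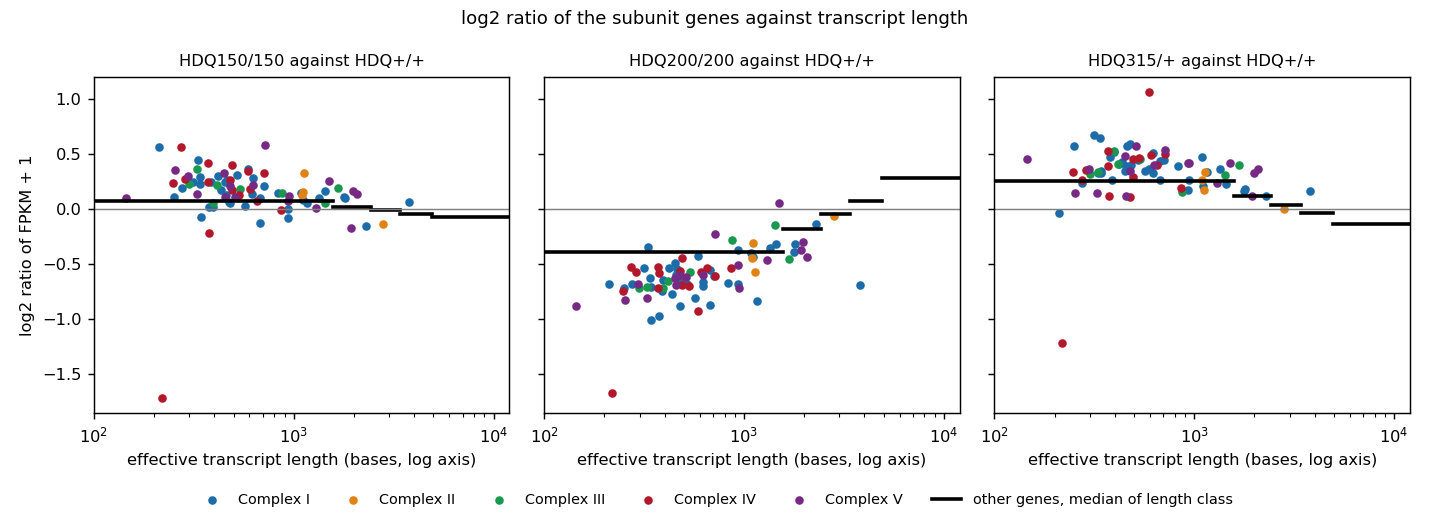
log2 ratio of FPKM + 1 to HDQ+/+ (vertical axis) against effective transcript length in bases (horizontal axis, logarithmic) for HDQ150/150, HDQ200/200 and HDQ315/+; points are subunit genes coloured by complex, and black bars are the medians of genes that are no members in each of 5 length classes. In HDQ200/200 the bars climb with length, with -0.39 in the shortest and 0.28 in the longest class, and most subunit genes lie in the shortest.

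The differences within complexes listed above run along the same axis. Sdha and Ndufs1, with lengths of 2809 and 2288 bases, lay close to wild type in HDQ200/200, while Atp5k (145 bases), Ndufa1 (342) and Uqcrq (300) lay far below it. With the trend of the log2 ratio over length removed across all genes, the member medians became 0.06 in HDQ150/150, -0.07 in HDQ200/200 and 0.04 in HDQ315/+. Within complex V, the HDQ200/200 median of the catalytic head and central stalk went from -0.51 to -0.13. That of the membrane part went from -0.81 to -0.07. After this correction 63 of 83 members were below 0 in HDQ200/200, and so were 6564 of the 12877 genes tested. Of the 1394 other genes with a mean of at least 50 FPKM, 875 were below 0, with a median of -0.09. The 2 members called lower in HDQ200/200 were Cox8b (-0.94) and Ndufa11 (-0.73). In HDQ315/+ Cox6a2 was called higher (0.74) and Cox8b lower (-1.65), and in HDQ150/150 Cox8b was called lower (-1.90). Of all genes tested, 3.53% were called lower in HDQ200/200 after this correction, 2.32% in HDQ315/+ and 3.23% in HDQ150/150. The share called higher in HDQ315/+ was 1.68%. Ndufa11, an accessory subunit of complex I, has an implied length of 3790 bases, where GENCODE M21 gives 545. With the GENCODE length its corrected value in HDQ200/200 was -0.12, so its call rests on the implied length. The length correction removed most of the member shift in all 3 comparisons and left the calls of Cox8b and, in HDQ315/+, of Cox6a2. Whether the trend over length arose in the tissue or in the preparation of the RNA and libraries was not tested.

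**Figure D5:**
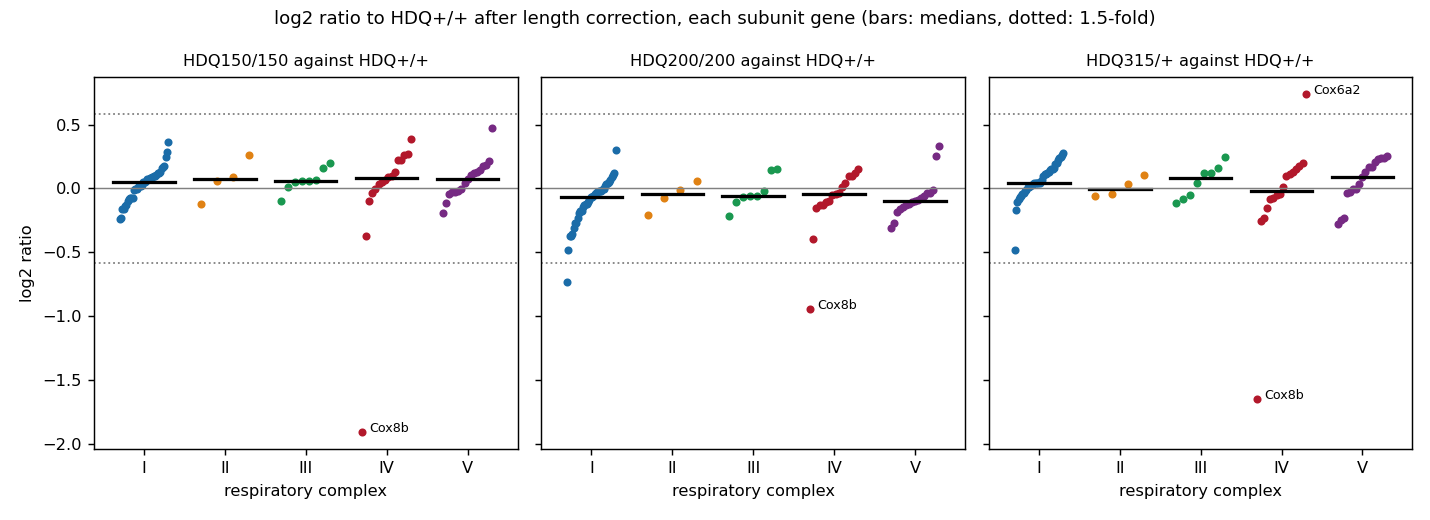
log2 ratio to HDQ+/+ (vertical axis) of each subunit gene after the length correction, by complex (horizontal axis), for HDQ150/150, HDQ200/200 and HDQ315/+; bars are medians and dotted lines mark 1.5-fold. Medians lie near 0 in all 3 panels, and Cox8b stays lowest in each, at -1.90, -0.94 and -1.65.

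Genes that work beside the subunits were set out from lists. Of 76 mitochondrial ribosome genes, whose products make the subunits encoded in the mitochondrion, 19 were called lower in HDQ200/200, or 25%, where 8.78% of all genes were and 26.9% of the genes in the shortest length class that are no members. Their median there was -0.46, and -0.09 after the length correction, with none called lower and 1 called higher, Mrpl33 (0.69). After that correction 1 was also called higher in HDQ150/150, Mrpl33 (0.62), and 2 in HDQ315/+, Mrpl15 (0.65) and Mrpl41 (0.60). Of all genes tested, 3.05% were called higher in HDQ150/150 after it, 3.39% in HDQ200/200 and 1.68% in HDQ315/+. Before the correction, the median in HDQ150/150 was 0.13 with 1 called higher, and in HDQ315/+ it was 0.31 with 4 called higher. Mrps28 (-0.83), Mrps21 (-0.84) and Mrps33 (-0.81) were among those called lower. Assembly and accessory factors of the complexes came next. Of 14 for complex I, 1 was called lower in HDQ200/200, Ndufaf2 (-0.81), with a median of -0.14. Of 21 for complex IV, 5 were called lower there, Cox17 (-0.79), Pet100 (-0.68), Cox14 (-0.67), Coa6 (-0.62) and Coa3 (-0.60), with a median of -0.30. Sdhaf1, 1 of 2 for complex II (-0.71), and Atpif1 (-0.67) and Usmg5 (-0.59), 2 of 5 for complex V, were also called lower in HDQ200/200, and Atpif1, the inhibitor of the synthase, was called higher in HDQ315/+ (0.66). None of the 3 complex III factors was called in any comparison. After the length correction no gene of the assembly and accessory factor lists was called in any comparison with HDQ+/+.

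Of 11 genes for cytochrome c, cytochrome c1 and ubiquinone synthesis, none was called in any comparison, with medians of 0.17 in HDQ150/150, -0.26 in HDQ200/200 and 0.31 in HDQ315/+. Cycs, which encodes cytochrome c, had 77.5 FPKM in HDQ150/150, 56.3 in HDQ200/200 and 95.4 in HDQ315/+, against 70.6 in HDQ+/+. Of 14 further citric acid cycle genes, Idh2 alone was called, lower in HDQ200/200 (-0.66), and the medians were 0.02 in HDQ150/150, -0.25 in HDQ200/200 and 0.26 in HDQ315/+. Among 11 regulators of mitochondrial biogenesis, Ppargc1b, a transcriptional coactivator, was called lower in HDQ150/150 (-0.62) and in HDQ315/+ (-0.65) and none in HDQ200/200. Ppargc1a, which encodes the coactivator PGC-1alpha, had 5.83 FPKM in HDQ150/150, 9.003 in HDQ200/200 and 5.76 in HDQ315/+, against 7.34 in HDQ+/+. Its order over the libraries is the reverse of that of most subunit genes. After the length correction its log2 ratios were -0.23 in HDQ150/150, 0.06 in HDQ200/200 and -0.20 in HDQ315/+. Idh2 (-0.50 in HDQ200/200) and Ppargc1b (-0.50 in HDQ150/150 and -0.42 in HDQ315/+) kept their sign after that correction but were under the call threshold.

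The subunits encoded by the mitochondrial genome gave only partial values. The feature for mt-Co1 was listed at 0 in HDQ200/200, HDQ315/+ and HDQ+/+, and the merged feature of mt-Atp6, mt-Atp8 and mt-Co3 was listed at 0 in HDQ315/+ and HDQ+/+, so no ratio was taken for them. Of the other 8 features, 3 were called higher in HDQ150/150, 1 in HDQ200/200 and 7 in HDQ315/+, and 1, mt-Nd3, was called lower in HDQ200/200 (-0.71). After the length correction 2 were called higher in HDQ150/150, 5 in HDQ200/200 and 3 in HDQ315/+, and none lower. The shares of all genes tested called higher on that scale were 3.05%, 3.39% and 1.68% in the same order. The complex IV gene mt-Co2 had 37449 FPKM in HDQ150/150, 23778 in HDQ200/200 and 48002 in HDQ315/+, against 30860 in HDQ+/+. This is the order of most nuclear-encoded members, but the other features with a ratio did not follow it. Lowest in HDQ+/+ were mt-Nd1, mt-Nd2, mt-Nd4, mt-Nd5, mt-Nd6 and mt-Cytb. For mt-Nd3 the lowest was HDQ200/200, and HDQ+/+ lay above HDQ150/150. The complex III gene mt-Cytb was at 0.57 in HDQ150/150, 0.07 in HDQ200/200 and 0.84 in HDQ315/+. Poly A selection reaches these transcripts only in part, so their levels are not set against those of nuclear genes.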

How the data were processed

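Poly A selected striatal RNA was measured in 4 libraries, 1 per genotype, assigned by the genotype in the labels. The submitters' processing notes name Cufflinks 2.1.1 with Cuffdiff and Cuffnorm, TopHat2 2.0.11, TopHat, Bowtie2 2.1.0 and bcl2fastq 1.8.4, beside the build mm10, with no role or order, and the annotation is not given in the sources used here. FPKM values were used as deposited. The deposited count columns, named counts per the file headers, hold a scaled signal: 98.1% to 98.4% of values above 0 were whole multiples, to within 0.05, of a step that differed between libraries (1.27 in HDQ150/150, 0.895 in HDQ200/200, 1.13 in HDQ315/+, 0.781 in HDQ+/+), and division by it gave fragments, the source of depth and of exact 95% Clopper-Pearson intervals.

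Unnamed features (5934) and short non-coding genes (704) were left out. Genes with a mean of at least 1 FPKM were tested, with a pseudocount of 1 and a fold size of 1.5. Effective length was derived from the ratio of scaled counts to FPKM, and the trend over it was removed by lowess (fraction 0.3) over all genes. Members named are those past the fold size (the farthest 12 per comparison), the extremes and highest level of each complex, paralogues, complex I core and complex II, Htt and called list genes. A few others were chosen after their values were seen. The members and gene lists were chosen with earlier results of these data known. Scripts were tested on simulated data and used Python 3.11.15, pandas 2.3.3, scipy 1.17.1, statsmodels 0.14.6 and matplotlib 3.10.9. Alternatives were another pseudocount, median centring, scaled counts, other level filters, and length and GC corrections.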

Additional observations from a re-analysis of the deposited data

How the results depend on the processing

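The member medians kept their sign under every alternative tried, for the 3 comparisons with HDQ+/+. Removal of the trend over length gave medians of 0.0607 in HDQ150/150, -0.0679 in HDQ200/200 and 0.0427 in HDQ315/+, and with GENCODE lengths, an alternative chosen after seeing the data, 0.0790, -0.143 and 0.0927. Members called lower in HDQ200/200 numbered 44 as deposited, 2 after the length correction, 1 with GENCODE lengths and 25 after a GC correction, which gave medians of -0.513 in HDQ200/200 and 0.278 in HDQ315/+. Members called higher in HDQ315/+ numbered 4, and 1 with either length correction. In HDQ150/150, 0 members were called higher, against 1 with a pseudocount of 0.1, 3 with scaled counts and 1 after the GC correction. With a mean of at least 10 FPKM, which leaves Cox8b out, 0 were called lower in HDQ150/150 and 0 in HDQ315/+. In HDQ200/200, 20 members were above 0 after the length correction, against 1 before, and of those called lower Ndufc1 (0.0492) and Ndufs5 (0.0180) changed sign. Of all genes called in HDQ200/200, 38.0% were higher, against 904 higher and 903 lower with median centring, 55.5% with scaled counts, 22.4% at a mean of at least 10 FPKM, 49.0% after the length and 50.8% after the GC correction, and 51.0% with GENCODE lengths. In HDQ315/+ the share was 57.7%, against 45.3% with centring, 46.7% with scaled counts, 41.9% with the length correction and 44.3% with GENCODE lengths. No paired analysis was possible because each genotype has 1 library. Depth limits Cox8b, Cox7a1, Cox4i2, Cox6b2 and Ndufa4l2, each with fewer than 100 fragments in some library.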
